A study of Homo sapiens with 6 samples.

Results

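The genes described here encode the proteins of the mitochondrial ribosome. They were chosen by name: every protein-coding gene of the table whose symbol starts with MRPL or MRPS followed by a number was taken, which gave 78 of 58735 genes. No expression value is part of this name rule. RNA sequencing had been done on 6 libraries labelled as Hep3B, a human hepatocellular carcinoma line. The control group held 3 libraries of cells with a control short hairpin RNA (shRNA), and the other group held 3 libraries of cells with an shRNA against HYOU1, a chaperone of the endoplasmic reticulum. All 6 libraries are labelled as the same line, and the labels do not give the hairpin sequences, the way they were delivered and the time between delivery and harvest. They also do not state that the libraries of a group came from separate cultures, so p-values measure only the spread among the libraries at hand, and that spread may be technical.

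The mitochondrial ribosome translates the few messages of the mitochondrial genome, all of which encode core subunits of the respiratory chain and of ATP synthase. Its ribosomal RNAs are made inside the organelle, while its proteins are made from nuclear genes in the cytosol and imported. The large subunit (MRPL genes) joins amino acids, and the small subunit (MRPS genes) holds the messenger RNA and decodes it. Some proteins descend from those of bacterial ribosomes, and others occur only in mitochondrial ribosomes. By structure, the 78 genes divide into 51 of the large subunit, 26 of the small subunit and MRPS36, whose protein is now placed in the 2-oxoglutarate dehydrogenase complex. MRPS30 and MRPS18A carry small subunit names, but their proteins sit in the large subunit.

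The promoters of these genes are known for sites of NRF1, of ETS factors such as GABPA, and of YY1. RefSeq windows on GRCh38.p14, from 250 bases before to 50 bases after an annotated start, were matched by symbol for 69 of the 78 genes, with 85 windows in all. No window was matched for MRPL10, MRPL13, MRPL15, MRPL2, MRPL21, MRPL23, MRPL35, MRPS28 and MRPS36. The 90 bases before the RefSeq start are shown for 3 genes that hold an exact match. They are also shown for MRPL40 and MRPS14, which passed the test with all 6 libraries and hold none. For MRPL40 this stretch lies inside the gene coordinates given for it below, which are those of the expression table. Capitals mark CCGGAAGT (the ETS sequence) in MRPL3 and MRPL20 and GCGCATGC (the NRF1 sequence) in MRPL32, and each line runs 5′ to 3′ on the strand of the gene.
MRPL3: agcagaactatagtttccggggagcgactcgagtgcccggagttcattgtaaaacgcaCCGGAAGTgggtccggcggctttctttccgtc
MRPL20: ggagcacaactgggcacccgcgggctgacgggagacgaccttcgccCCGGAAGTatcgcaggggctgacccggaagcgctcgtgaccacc
MRPL32: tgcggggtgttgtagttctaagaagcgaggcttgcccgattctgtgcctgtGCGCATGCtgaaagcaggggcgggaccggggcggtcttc
MRPL40: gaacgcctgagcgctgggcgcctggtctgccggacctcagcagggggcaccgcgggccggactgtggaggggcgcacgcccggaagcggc
MRPS14: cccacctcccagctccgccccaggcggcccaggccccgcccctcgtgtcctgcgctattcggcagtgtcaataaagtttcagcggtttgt
These stretches lie on GRCh38.p14, with MRPL3 at chr3:131502972-131503061, minus strand, MRPL20 at chr1:1407294-1407383, minus strand, MRPL32 at chr7:42932286-42932375, plus strand, MRPL40 at chr22:19432455-19432544, plus strand and MRPS14 at chr1:175023426-175023515, minus strand. Matches to AAGATGGC, the core that YY1 binds, lay mostly just after the start. They are shown in capitals with the bases around them for 5 genes whose levels are described below.
MRPL42: attgaaacAAGATGGCgggttcgt
MRPS30: cgcgggcaAAGATGGCggcggcca
MRPL20: acccgggcAAGATGGCagcggcgc
MRPS7: ggccagccAAGATGGCtgcccccg
MRPL51: taaggcccAAGATGGCtgtcttcg
These sites lie on GRCh38.p14, with MRPL42 at chr12:93467514-93467537, plus strand, MRPS30 at chr5:44808952-44808975, plus strand, MRPL20 at chr1:1407263-1407286, minus strand, MRPS7 at chr17:75261890-75261913, plus strand and MRPL51 at chr12:6493226-6493249, minus strand.

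Exact matches on either strand were counted in the windows of the 69 genes and set beside all windows of the table. AAGATGGC occurred in 27.1% of the 85 windows, in 21 genes. It occurred in 2.89% of all 35116 windows of the same length and in 5.05% of the 12664 windows of tested genes. Of its 22 positions in the genes of mitochondrial ribosomal proteins, 16 began after the start and 18 ran in the direction of the gene. The middle position was 12 bases after the start. Over the tested genes, 59.6% of the matches began after the start and 73.3% ran in the direction of the gene. CCGGAAGT occurred in 16.5% of the windows, in 12 genes, against 4.14% of all windows and 7.86% of those of tested genes. GCGCATGC occurred in 7.06% of the windows, in 6 genes, against 3.05% and 4.98%. CACGTG (E-box) stood in 10.6% of the windows against 7.26% of all windows and 9.7% of those of tested genes. TGACGTCA (CREB) stood in 1.18% against 1.85% and 2.91%, and ACTACAAT (ZNF143) in 1.18% against 0.638% and 0.798%. In MRPL17 a forward and a reverse match of GCGCATGC overlap each other. A match describes letters only, and several windows can belong to 1 gene.

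Each library held 16893091 to 18233240 fragments. HYOU1 stood at 37.6 to 59.5 FPKM in the controls and at 2.32 to 2.37 FPKM with HYOU1 shRNA (limma, log2 fold change -4.38, adjusted p = 0.00119). In its HYOU1 level each library matched the shRNA named in its label, which says nothing of the cell line. FPKM count fragments per kilobase of gene length, scaled for the size of the library. None of 15 markers of hepatocytes and hepatocellular carcinoma reached a mean of 1 FPKM, although the label is a liver cancer line. ALB, TTR, APOB, APOA2, APOH and GPC3 were listed at 0 in every library. The 15 markers summed to 2.87 to 3.04 FPKM in the controls and to 1.05 to 1.23 FPKM with HYOU1 shRNA. FGB was at 1.21 to 1.42 FPKM in the controls and 0.103 to 0.241 FPKM with HYOU1 shRNA, while SERPINA1 was at 0.0682 to 0.120 FPKM and 0.400 to 0.593 FPKM. All 4 biliary markers reached 1 FPKM, with sums of 51.9 to 58.5 FPKM and 63.6 to 67.9 FPKM. KRT7 held most of that sum, at a mean of 47.3 FPKM, and KRT19 differed the other way, by -0.99 (limma, adjusted p = 0.346). Of 4 fibroblast and stellate cell markers 2 did, with sums of 3.71 to 5.23 FPKM and 6.65 to 7.92 FPKM. COL1A1 rose by 1.09 (limma, adjusted p = 0.0159), and PDGFRB differed by -0.62 (limma, adjusted p = 0.0942). Of 6 immune and endothelial markers none did, with sums of 0.818 to 1.65 FPKM and 0.725 to 0.901 FPKM, and 2 of them were listed at 0 throughout. The part of these differences in the results below was not tested, and in bulk RNA fewer cells of a type and less RNA per cell cannot be told apart.

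In the genes of the mitochondrial ribosome, control replicate 1 differed from the rest of the libraries. It was the highest or the lowest of the 6 libraries in 60 of 76 tested members, the highest in 24 and the lowest in 36. Over the members, the log2 values of control replicates 2 and 3 correlated at Pearson's r of 0.994, and those of control replicates 1 and 2 at 0.885. The distance of control replicate 1 from the other controls followed the GC content of the longest transcript, with a Pearson's r of -0.78 across the 76 members and -0.71 across all tested genes. These are correlations across genes of the same libraries, given as a description. In the 13 members with a GC content under 40% its median distance was 0.52 on the log2 scale, and in the 10 members with a GC content of 60% or more it was -1.09. MRPL12, whose protein forms the flexible stalk of the large subunit, had 8.32, 37.8 and 40.9 FPKM in the 3 controls, in the order of their numbers as throughout, and 26.6, 36.4 and 34.6 FPKM with HYOU1 shRNA. MRPS34, a small subunit protein found only in mitochondria, was at 43.8, 129 and 151 FPKM in the controls and at 130, 137 and 139 FPKM with HYOU1 shRNA. In MRPL12 the HYOU1 shRNA libraries lay above control replicate 1 and below both other controls, and in MRPS34 they lay between the other controls. Fragments of genes of the mitochondrial genome also made up 7.59% of control replicate 1, against 5.17% and 4.96% of the other controls and 3.39% to 3.84% of the HYOU1 shRNA libraries. For this reason counts of members are given with all 6 libraries and without control replicate 1, as are the fold changes of the members that passed in either fit.

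**Figure D1:**
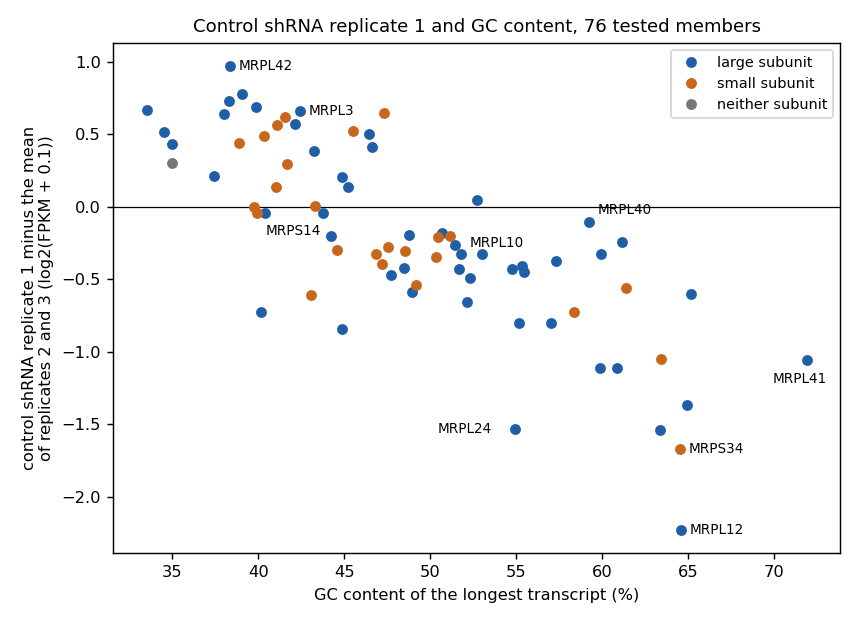
Distance of control replicate 1 from the mean of control replicates 2 and 3 (y axis, difference of log2(FPKM + 0.1)) against the GC content of the longest transcript in percent (x axis) for the 76 tested members, with a point for each gene coloured by subunit. The points fall from a median of 0.52 below 40% GC to a median of -1.09 at 60% GC or more, and MRPL12 lies lowest.

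The question of the comparison is how the transcripts of the mitochondrial ribosome differ between cells with an shRNA against HYOU1 and control cells. The levels of the 2 groups lay close together for most of these genes. A test required an average of 1 FPKM or more across the 6 libraries, which 76 members reached. Their median level was 18.3 FPKM, against 6.39 FPKM over all 12448 tested genes, and ranged from 1.18 to 121.5 FPKM. With all 6 libraries 1 member rose and 2 fell (limma, adjusted p under 0.05), which is 3.95% of the tested members. Over all tested genes 12.3% passed, 6.6% as rises and 5.66% as falls. When values were rescaled to TPM, which gives every library the same sum, 2 members rose and 1 fell. Of all 12448 tested genes 899 rose and 619 fell in that fit.

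With control replicate 1 left out, which leaves 2 control libraries against 3, 10 members rose and 13 fell, or 30.3% of those tested. The share over all genes was then 44.3%, with 24.6% rising and 19.7% falling. After a correction for GC content in each library, 8 rose and 8 fell, or 21.1%, against 40.6% over all genes, with 20.4% rising and 20.2% falling. All 3 members that passed with 6 libraries also passed without control replicate 1 in the same direction, and 14 members passed both in the fit without that library and in the fit with the GC correction. Values of the groups did not overlap in 24 members (31.6%), with 11 higher and 13 lower, against 44.4% of all genes. The share of members that passed was below the share of all genes in each of these readings.

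The sizes of the differences were small. No member differed 2-fold with all libraries, without control replicate 1 or after the GC correction, whereas 8.72%, 7.05% and 7.25% of all tested genes did. The log2 fold changes of the members ran from -0.58 to 0.58 with all libraries and from -0.57 to 0.47 without control replicate 1. Their median was 0.016, beside 0.035 over all genes, and without control replicate 1 it was -0.039, beside 0.021. The median of the absolute log2 fold change was 0.21, beside 0.34 over all genes, and 0.18 beside 0.29 without control replicate 1. The 95% confidence interval of the fold change lay within 2-fold in both directions for 63 members, 82.9% of those tested, against 62.7% of all genes. This held without control replicate 1 for 75 members, and MRPL23 was the exception. It lay within 1.5-fold for 58 members without control replicate 1, or 76.3%, against 52.2% of all genes.

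**Figure D2:**
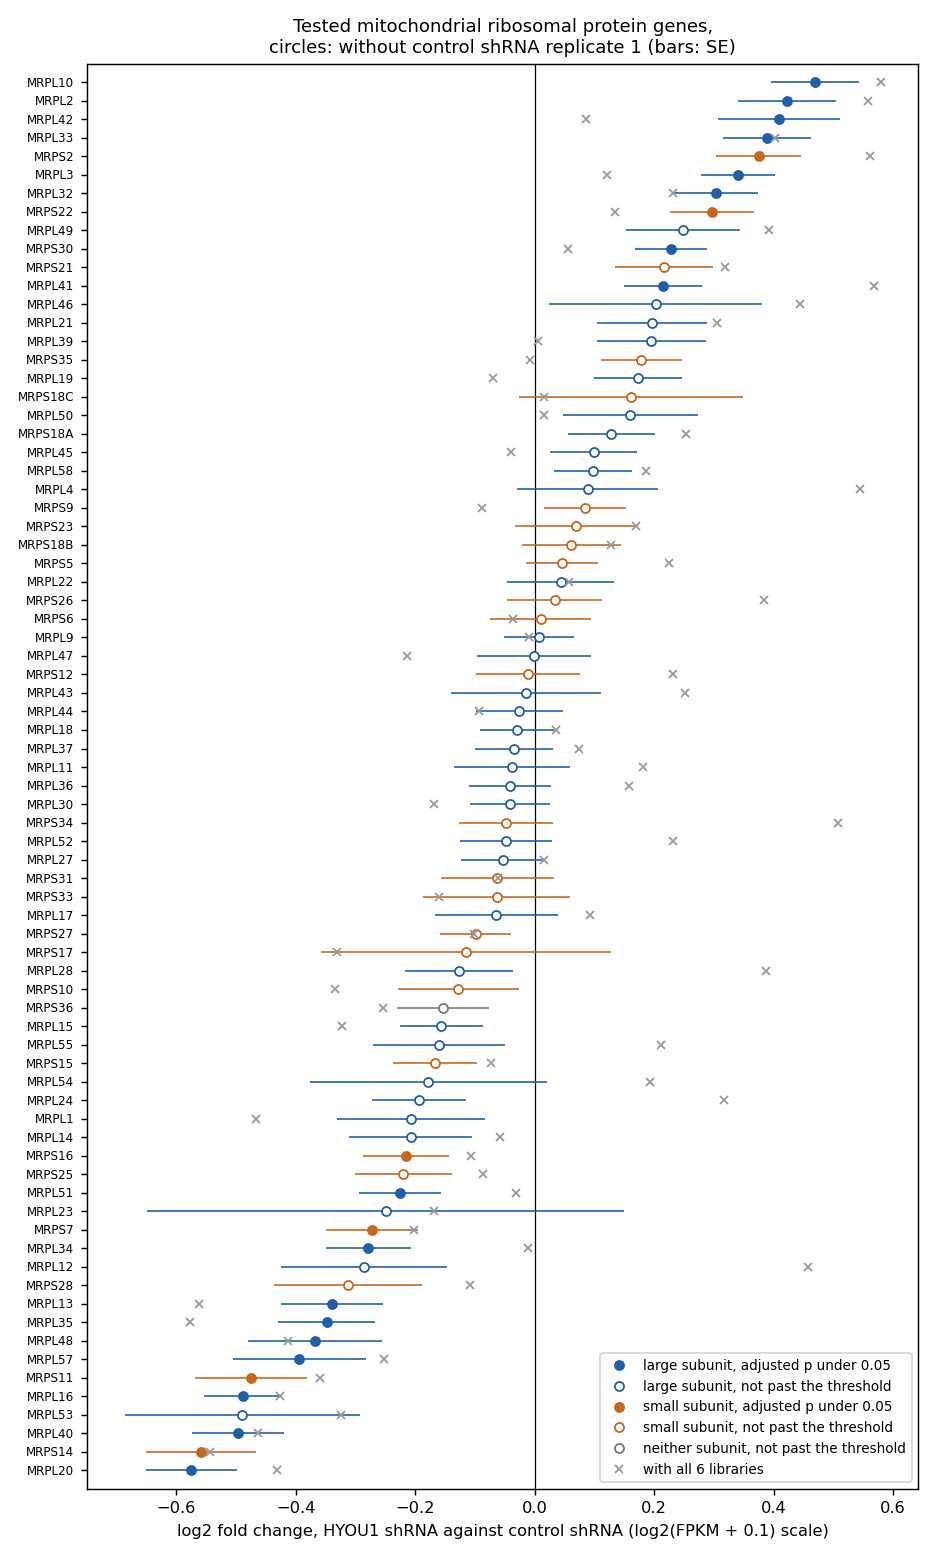
Log2 fold change of HYOU1 shRNA against control shRNA (x axis, log2(FPKM + 0.1) scale) for the 76 tested members (y axis, ordered by value), with circles and standard error bars for the fit without control replicate 1, filled where the adjusted p was under 0.05, and crosses for all 6 libraries. Circles run from -0.57 to 0.47, with 10 filled above 0 and 13 filled below it.

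Within the large subunit, MRPL10 rose. Its protein forms the base of the stalk to which MRPL12 binds. MRPL10 (ENSG00000159111, chromosome 17, 47823272 to 47831534, minus strand) had 19.9, 23.5 and 26.5 FPKM in the controls and 33.0, 35.6 and 35.4 FPKM with HYOU1 shRNA. All HYOU1 shRNA libraries were above all controls. Group means were 23.3 ± 3.33 and 34.7 ± 1.45 FPKM (SD, n = 3 each), and the log2 fold change was 0.58 ± 0.14 (SE; limma, adjusted p = 0.0419). It was 0.47 without control replicate 1 (limma, adjusted p = 0.00141) and 0.53 after the GC correction (limma, adjusted p = 0.00151). The call was lost without control replicate 2 (limma, adjusted p = 0.108) and without HYOU1 shRNA replicate 1, 2 or 3 (limma, adjusted p = 0.144, 0.173 and 0.174). The number of calls over all genes also changed greatly between fits that left out a single library, as given at the end. A call lost in such a fit, here and below, is therefore not particular to the gene named.

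MRPL40, a large subunit protein found only in mitochondrial ribosomes, fell. MRPL40 (ENSG00000185608, chromosome 22, 19431902 to 19436075, plus strand) was at 15.4, 16.3 and 16.9 FPKM in the controls and at 11.7, 12.5 and 11.0 FPKM with HYOU1 shRNA. The groups did not overlap, and control replicate 1 lay close to the other controls. Group means were 16.2 ± 0.744 and 11.8 ± 0.777 FPKM (SD, n = 3 each), which gave -0.46 ± 0.11 on the log2 scale (SE; limma, adjusted p = 0.0461). It was -0.50 without control replicate 1 (limma, adjusted p = 0.00135) and -0.74 after the GC correction (limma, adjusted p = 0.0144), which is more than 1.5 times as large. Leaving out any other library ended the call (limma, adjusted p between 0.102 and 0.209).

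MRPS14, a small subunit protein with a bacterial counterpart, fell as well. MRPS14 (ENSG00000120333, chromosome 1, 175010789 to 175023425, minus strand) was at 12.2, 11.7 and 13.5 FPKM in the controls and at 8.01, 9.15 and 8.44 FPKM with HYOU1 shRNA. Every HYOU1 shRNA library was below every control. Group means were 12.5 ± 0.904 and 8.53 ± 0.575 FPKM (SD, n = 3 each), and the log2 fold change was -0.54 ± 0.12 (SE; limma, adjusted p = 0.0352). With control replicate 1 left out it was -0.56 (limma, adjusted p = 0.0018), and after the GC correction it was -0.37 and did not pass (limma, adjusted p = 0.161). Without each of the other libraries the call was lost (limma, adjusted p between 0.0831 and 0.162). On the opposite strand CACYBP shares 351 exon bases with it, 13.5% of its exon bases, at a mean of 40.3 FPKM. The sources used here do not state a strand setting for the counting, so reads of the pair cannot be told apart there. CACYBP itself differed by 0.22 (limma, adjusted p = 0.367) and rose by 0.38 without control replicate 1 (limma, adjusted p = 0.00188).

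**Figure D3:**
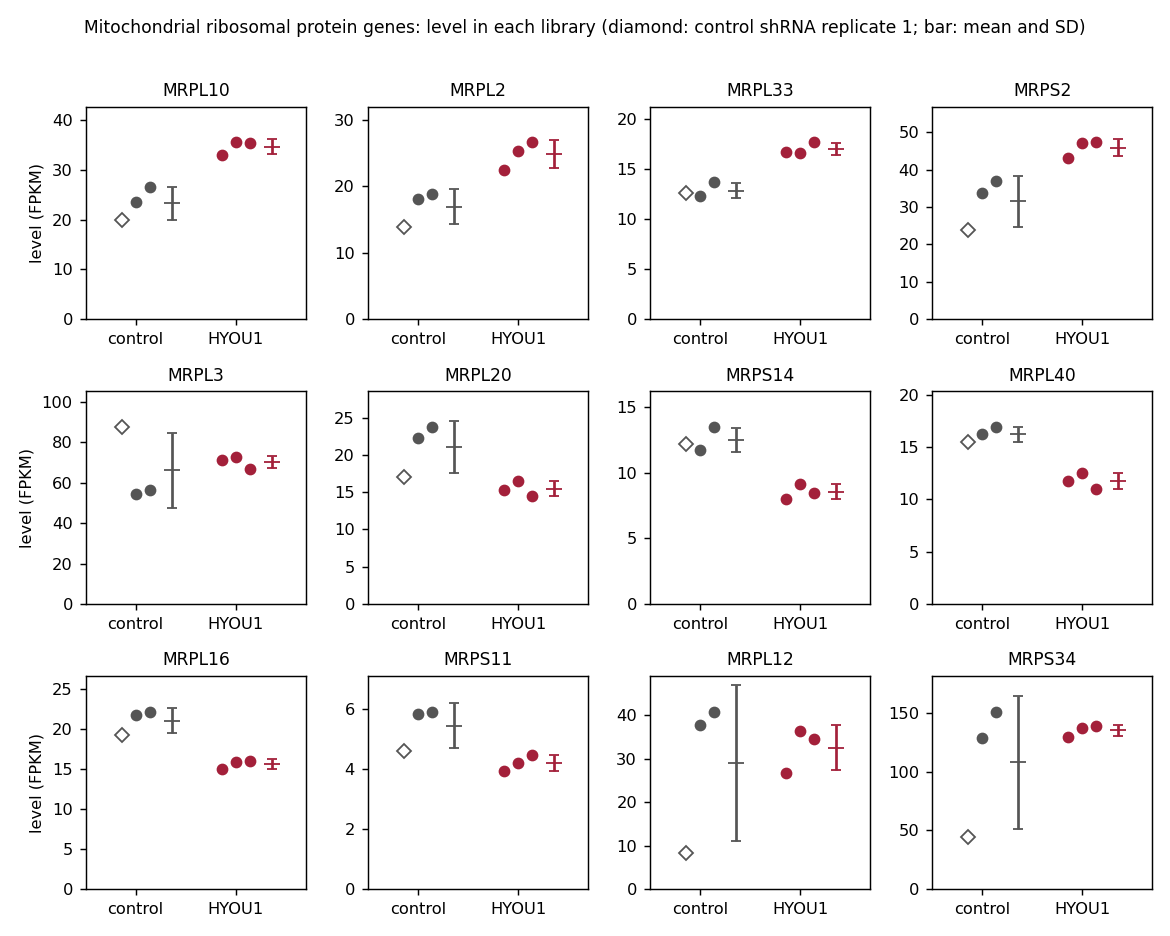
Level in FPKM (y axis) of 12 members in each library of the 2 groups (x axis), with points for libraries, an open diamond for control replicate 1, and bars for the mean and SD of 3 libraries. MRPL10, MRPL40 and MRPS14 do not overlap between groups, while for MRPL3, MRPL12 and MRPS34 control replicate 1 lies far from the other controls.

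The other large subunit genes that rose without control replicate 1 included proteins next to the peptidyl transferase centre. MRPL2 was at 13.9, 18.1 and 18.9 FPKM in the controls and at 22.5, 25.3 and 26.7 FPKM with HYOU1 shRNA. Its groups did not overlap, and it was higher by 0.56 on the log2 scale over all libraries (limma, adjusted p = 0.0649) and 0.42 without control replicate 1 (limma, adjusted p = 0.00395). MRPL3 was at 87.6, 54.5 and 56.5 FPKM in the controls and at 71.4, 72.7 and 66.8 FPKM with HYOU1 shRNA. Control replicate 1 was the highest of the 6 libraries and the other controls the lowest, so the log2 fold change of 0.12 over all libraries (limma, adjusted p = 0.699) became 0.34 without it (limma, adjusted p = 0.00292). MRPL33, a small bacterial-type protein, was at 12.6, 12.3 and 13.7 FPKM against 16.7, 16.6 and 17.7 FPKM, without overlap. Its log2 fold change was 0.40 over all libraries (limma, adjusted p = 0.0606) and 0.39 without control replicate 1 (limma, adjusted p = 0.00363). On the same strand, BABAM2 shares 324 exon bases with it, 21.1% of its own, and BABAM2 fell by 0.32 without control replicate 1 (limma, adjusted p = 0.0284).

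The other rises of the large subunit without control replicate 1 were those of MRPL42, MRPL32, MRPS30 and MRPL41. MRPL42, found only in mitochondrial ribosomes, was at 5.37, 2.69 and 2.69 FPKM against 3.56, 3.74 and 3.51 FPKM. MRPL32, which is matured by a protease of the inner membrane before it joins the subunit, was at 11.7, 10.1 and 10.1 FPKM against 12.5, 13 and 11.9 FPKM. In the latter gene every HYOU1 shRNA library was above every control. The log2 fold changes without that control were 0.41 for MRPL42, 0.30 for MRPL32 and 0.23 for MRPS30 (limma, adjusted p = 0.0125, 0.00958 and 0.0155). With all 6 libraries they were 0.085, 0.23 and 0.055, and none passed (limma, adjusted p = 0.853, 0.234 and 0.84). MRPS30 was at 35.0, 24.8 and 24.1 FPKM in the controls against 29, 29.2 and 27.8 FPKM. MRPL41, the member with the highest GC content at 71.9%, was at 28.4, 58.2 and 60.3 FPKM against 64.9, 69.2 and 72.3 FPKM. The log2 fold change of MRPL41 was 0.57 over all libraries, 0.21 without control replicate 1 (limma, adjusted p = 0.0285), and 0.026 without that library after the GC correction (limma, adjusted p = 0.659).

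Falls in the large subunit without control replicate 1 were led by MRPL20, whose bacterial counterpart is needed for early assembly of the subunit. MRPL20 was at 17.1, 22.3 and 23.8 FPKM in the controls and at 15.2, 16.6 and 14.5 FPKM with HYOU1 shRNA. Every HYOU1 shRNA library was below every control, by little below control replicate 1. The log2 fold change was -0.43 over all libraries (limma, adjusted p = 0.118), -0.57 without control replicate 1 (limma, adjusted p = 0.000641) and -0.56 once GC content was corrected for (limma, adjusted p = 0.00163). MRPL16, which lies near the tRNA binding sites, was at 19.3, 21.7 and 22.1 FPKM against 15, 15.8 and 16.0 FPKM. It also showed no overlap, and differed by -0.43 over all libraries (limma, adjusted p = 0.0568) and -0.49 without control replicate 1 (limma, adjusted p = 0.000641).

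Further falls without control replicate 1 were of similar or smaller size. MRPL35 was at 12.9, 7.68 and 8.35 FPKM against 6.36, 6.13 and 6.33 FPKM, and MRPL13 at 13.4, 8.51 and 8.31 FPKM against 6.74, 6.98 and 6.18 FPKM. Both belong to the bacterial-type proteins and both had control replicate 1 as their highest library. Their log2 fold changes were -0.35 and -0.34 without control replicate 1 (limma, adjusted p = 0.00919 and 0.0125), against -0.58 and -0.56 with it. MRPL48 was at 7.32, 6.01 and 7.36 FPKM against 4.79, 5.51 and 5.12 FPKM, which gave -0.41 over all libraries (limma, adjusted p = 0.0975) and -0.37 without control replicate 1 (limma, adjusted p = 0.0288). MRPL57 fell by 0.39 and MRPL34 by 0.28 in that fit (limma, adjusted p = 0.0211 and 0.0144). With all 6 libraries they differed by -0.25 and -0.011 (limma, adjusted p = 0.362 and 0.978). MRPL34 was at 19.3, 31.7 and 35.7 FPKM in the controls and at 26.7, 28.3 and 28.3 FPKM with HYOU1 shRNA, so it lay between control replicate 1 and the other controls. MRPL34 shares 223 exon bases with ABHD8 on the opposite strand, and ABHD8 itself fell by 0.56 without control replicate 1 (limma, adjusted p = 0.00441). MRPL51, named after its value was seen, was at 36.1, 51 and 57.7 FPKM against 47.4, 45.6 and 46.3 FPKM, and fell by 0.23 in the same fit (limma, adjusted p = 0.0282). Over all libraries MRPL51 differed by -0.031 (limma, adjusted p = 0.923), and it shares 31.3% of its exon bases with NCAPD2 on the opposite strand.

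Counted by subunit, the 50 tested large subunit genes had 1 rise and 1 fall with all libraries, and 8 rises and 9 falls without control replicate 1. Their median log2 fold change was 0.057 with all libraries and -0.036 without that library. The 25 tested small subunit genes had 1 fall with all libraries, and 2 rises and 4 falls without control replicate 1, with medians of -0.061 and -0.048. Among 45 tested genes listed with a bacterial homologue 6 rose and 9 fell without control replicate 1. Among 30 genes listed as mitochondria-specific 4 rose and 4 fell. The shares that passed in that fit were 34% and 24% by subunit and 33.3% and 26.7% by kind of protein, each below the 44.3% of all genes, and no difference between these groups was tested.

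In the small subunit, MRPS2 and MRPS22 rose without control replicate 1. MRPS2, a bacterial-type protein, was at 23.9, 33.7 and 36.9 FPKM in the controls and at 43.1, 47.0 and 47.4 FPKM with HYOU1 shRNA. The groups did not overlap, and the log2 fold change was 0.56 over all libraries (limma, adjusted p = 0.0882) and 0.37 without control replicate 1 (limma, adjusted p = 0.00345). MRPS22, found only in mitochondrial ribosomes, was at 11.7, 8.32 and 8.39 FPKM against 10.1, 10.6 and 10.1 FPKM. Control replicate 1 was the highest library, and the log2 fold change was 0.13 with it and 0.30 without it (limma, adjusted p = 0.599 and 0.00998).

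MRPS11, a bacterial-type protein of the small subunit, was at 4.58, 5.83 and 5.90 FPKM in the controls and at 3.92, 4.21 and 4.46 FPKM with HYOU1 shRNA. All HYOU1 shRNA libraries were below all controls, and the log2 fold change was -0.36 over all libraries (limma, adjusted p = 0.159) and -0.47 without control replicate 1 (limma, adjusted p = 0.00434). MRPS7, named after its value was seen, fell by 0.27 and MRPS16 by 0.22 without control replicate 1 (limma, adjusted p = 0.021 and 0.0405). Over all libraries they differed by -0.20 and -0.11 (limma, adjusted p = 0.305 and 0.614). MRPS16 was at 43.1, 52.9 and 55.2 FPKM in the controls and at 43.0, 48.1 and 48.7 FPKM with HYOU1 shRNA, and its groups overlapped through control replicate 1. MRPS36 was at 14.9, 11.9 and 12.3 FPKM against 10.8, 10.2 and 11.6 FPKM. Its groups did not overlap, but its log2 fold change of -0.25 did not pass (limma, adjusted p = 0.245), nor did -0.15 without control replicate 1 (limma, adjusted p = 0.141).

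Of the 3 most abundant members of each subunit, MRPL3 rose and MRPS16 fell without control replicate 1, by the values given above. The other 4 did not pass. In the large subunit the highest mean levels were those of MRPL37, MRPL14 and MRPL3. MRPL37 was at 61.2, 75 and 78.4 FPKM in the controls and at 70.9, 78.8 and 75.3 FPKM with HYOU1 shRNA, a log2 fold change of -0.034 without control replicate 1 with a 95% confidence interval from -0.18 to 0.12. MRPL14 was at 58.2, 72.6 and 87.0 FPKM against 61.7, 72.4 and 72.9 FPKM, with -0.21 and an interval from -0.45 to 0.034. The 3 genes had means of 73.3, 70.8 and 68.3 FPKM over all libraries, and these differ by less than the SD of the controls of each gene.

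In the small subunit the order was MRPS34, MRPS18B and MRPS16, with means of 121.5, 49.1 and 48.5 FPKM. In 5 of 6 libraries MRPS34 was above every value of the next genes, and in control replicate 1, at 43.8 FPKM, it was within their range. MRPS18B was at 42.6, 45.5 and 52.8 FPKM in the controls and at 54.2, 48.0 and 51.5 FPKM with HYOU1 shRNA. MRPS18B and MRPS16 overlapped in their levels. MRPS34 had a log2 fold change of -0.048 without control replicate 1, with a 95% confidence interval from -0.23 to 0.13, and MRPS18B had 0.061, with an interval from -0.13 to 0.25.

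At the low end of the large subunit stood MRPL38, MRPL46 and MRPL23. MRPL38 was at 0.400, 0.670 and 0.472 FPKM in the controls and at 0.686, 0.565 and 0.796 FPKM with HYOU1 shRNA, under the limit for a test. In the annotation 37.5% of its exon bases are shared with a second coding gene on the same strand, AC087289.3. MRPL46 was at 0.665, 1.17 and 1.16 FPKM against 1.38, 1.33 and 1.36 FPKM. Its groups did not overlap, but its log2 fold change of 0.44 did not pass (limma, adjusted p = 0.301). MRPL23 varied most, at 2.58, 3.80 and 2.47 FPKM against 1.58, 3.46 and 3.07 FPKM, and its log2 fold change of -0.25 without control replicate 1 had an interval from -1.29 to 0.80.

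In the small subunit MRPS24, MRPS18C and MRPS17 were lowest. MRPS24 was at 0.179, 0.327 and 0.171 FPKM in the controls and at 0.321, 0.229 and 0.0438 FPKM with HYOU1 shRNA, and was not tested. It shares 23.2% of its exon bases with the readthrough gene URGCP-MRPS24. The sources used here do not state how reads that match both genes were counted, so the low levels of MRPL38 and MRPS24 are uncertain. MRPS18C was at 2.22, 1.40 and 1.84 FPKM against 2.09, 1.83 and 1.55 FPKM, and MRPS17 at 3.72, 2.52 and 2.17 FPKM against 2.74, 2.40 and 1.51 FPKM. Both overlapped between the groups. In all, 34 members share exon bases with another coding gene, 9 of them at least 10% of their bases on the same strand and 11 at least 10% on the opposite strand. MRPL12 shares 68.2% of its exon bases with AC139530.2 on the same strand, and MRPS17 shares 21.8% with AC092647.5. On the opposite strand MRPS18C shares 40.2% with ABRAXAS1. The levels of such genes are uncertain as well. MRPL10 and MRPL40 share none. FPKM also depend on the gene length used, which for all 78 members was the merged length of all annotated exons.

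As a whole, the transcripts of the mitochondrial ribosome added up to similar levels in the 2 groups. The 78 genes summed to 1501, 1754 and 1904 FPKM in the controls and to 1744, 1844 and 1841 FPKM with HYOU1 shRNA. Control replicate 1 was lowest. HYOU1 shRNA replicate 1 lay just below control replicates 2 and 3, and the other HYOU1 shRNA libraries lay between them. On average the sums were 1720 ± 203 and 1810 ± 56.7 FPKM (SD, n = 3 each). The large subunit summed to 1028, 1179 and 1272 FPKM against 1157, 1237 and 1238 FPKM, and the small subunit to 458, 563 and 619 FPKM against 576, 597 and 591 FPKM. In both subunits the ranges of the groups overlapped. The share of all fragments was 0.375%, 0.413% and 0.434% in the controls and 0.412%, 0.427% and 0.419% with HYOU1 shRNA.

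**Figure D4:**
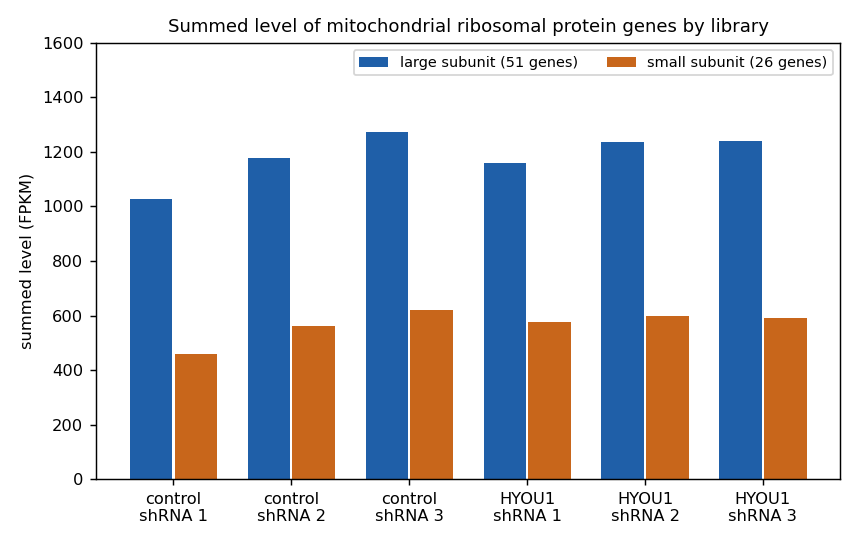
Summed level in FPKM (y axis, from 0) of the 51 large subunit genes and the 26 small subunit genes in each of the 6 libraries (x axis), with a bar for each subunit. Control replicate 1 has the lowest sums, 1028 and 458 FPKM, and the HYOU1 shRNA libraries overlap the other controls.

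Of the subunits that carry other names, all 5 were tested and none passed with all libraries by limma (2 at an unadjusted p under 0.05) or by voom on the recovered fragments. Over all genes 12.3% passed with all libraries by limma. Without control replicate 1, 3 of the 5 passed, or 60%, against 44.3% of all genes. DAP3, a GTP-binding protein of the small subunit, was at 40.8, 38.4 and 42.7 FPKM in the controls and at 45.8, 47.8 and 46.9 FPKM with HYOU1 shRNA. It rose by 0.21 without control replicate 1 (limma, adjusted p = 0.0343). CHCHD1 was at 27.0, 31.7 and 34.3 FPKM against 23.3, 24.1 and 25.6 FPKM and fell by 0.44 in the same fit (limma, adjusted p = 0.0015). With all libraries DAP3 differed by 0.20 and CHCHD1 by -0.34 (limma, adjusted p = 0.228 and 0.127). Neither gene overlapped between the groups. AURKAIP1 was at 18.9, 55.6 and 61.8 FPKM against 45.1, 46.5 and 48.9 FPKM. Its log2 fold change was 0.22 over all libraries (limma, adjusted p = 0.756) and -0.32 without control replicate 1 (limma, adjusted p = 0.00624), so its direction rested on that library. PTCD3 differed by -0.28 and GADD45GIP1 by 0.034 without control replicate 1, and neither passed (limma, adjusted p = 0.0559 and 0.734).

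Assembly factors and enzymes that modify the mitochondrial ribosomal RNAs held the largest change among the tested genes of the pathway. Of 28 genes on the list 27 were tested, and 2 rose with all libraries. Both are pseudouridine synthases. MTG1, the gene not tested, was at 0.944, 1.28 and 1.36 FPKM in the controls and at 0.409, 0.385 and 0.489 FPKM with HYOU1 shRNA. It was lower without overlap between the groups, and its mean was under the limit for a test. RPUSD4, which acts on the large ribosomal RNA, was at 6.80, 6.33 and 6.63 FPKM in the controls and at 18.6, 18.3 and 19 FPKM with HYOU1 shRNA. The libraries of each group lay close together and far from the other group, with a log2 fold change of 1.49 ± 0.11 (SE; limma, adjusted p = 0.00236). Without control replicate 1 it was 1.51 (limma, adjusted p = 6.68e-06). The rise passed in every fit that left out a single library (limma, adjusted p at most 0.0377). FAM118B shares 243 exon bases with RPUSD4 on the opposite strand, 5.95% of those of RPUSD4, and fell by 0.82 (limma, adjusted p = 0.0170). RPUSD3, which modifies mitochondrial messages, was at 5.63, 7.64 and 8.38 FPKM against 12.7, 11.4 and 12.4 FPKM, without overlap. RPUSD3 rose by 0.76 (limma, adjusted p = 0.0373), and by 0.60 without control replicate 1 (limma, adjusted p = 0.00077). It did not pass without control replicate 2 (limma, adjusted p = 0.089) or with any HYOU1 shRNA library left out (limma, adjusted p between 0.134 and 0.155). In the fit without control replicate 1, 5 genes of the list rose and 3 fell, and the median log2 fold change was -0.052. The genes that passed were 29.6% of the list, against 44.3% of all genes, and with all libraries they were 7.41% against 12.3%.

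None of the 16 translation factors and membrane insertion genes passed with all libraries by limma (2 at an unadjusted p under 0.05), and 1 did by voom. Over all genes 12.3% passed with all libraries by limma. When control replicate 1 was left out, 5 fell and none rose by limma, with a median log2 fold change of -0.12. These were 31.3% of the list, against 44.3% of all genes, of which 19.7% fell. GFM1, the elongation factor that moves the ribosome along the message, was at 15.9, 11.1 and 10.1 FPKM in the controls and at 7.52, 7.77 and 6.99 FPKM with HYOU1 shRNA. Its groups did not overlap, with -0.70 over all libraries (limma, adjusted p = 0.0585) and -0.51 without control replicate 1 (limma, adjusted p = 0.00187). TACO1, an activator of translation of a cytochrome oxidase subunit, differed by -0.36 over all libraries (limma, adjusted p = 0.301) and fell by 0.60 without control replicate 1 (limma, adjusted p = 0.0016). The other falls in that fit were those of MTFMT, TSFM and LRPPRC, by 0.39, 0.28 and 0.27 (limma, adjusted p = 0.0109, 0.0344 and 0.0148). Over all libraries these 3 differed by -0.53, -0.23 and -0.59 (limma, adjusted p = 0.0779, 0.25 and 0.192). These 5 genes were named after their values were seen.

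The ribosomal RNAs of the mitochondrion are encoded in the organelle. The RNA had been selected for poly(A), so the values may not follow the amount of these RNAs. Fragments of all genes of the mitochondrial genome were also a smaller share with HYOU1 shRNA (3.39% to 3.84%) than in the controls (7.59%, 5.17% and 4.96%). MT-RNR1, the RNA of the small subunit, was at 1735, 762 and 877 FPKM in the controls and at 601, 626 and 605 FPKM with HYOU1 shRNA. It showed no overlap, and its log2 fold change was -0.78 over all libraries (limma, adjusted p = 0.131) and -0.42 without control replicate 1 (limma, adjusted p = 0.00248). MT-RNR2, the RNA of the large subunit, was at 10549, 6604 and 6856 FPKM against 6309.7, 6358 and 6510.4 FPKM. Its log2 fold change was -0.29 over all libraries and -0.074 without control replicate 1 (limma, adjusted p = 0.331 and 0.381). In the deposited values of MT-RNR2 every HYOU1 shRNA library was below every control. Quantile scaling turned the direction and gave 0.24 (limma, adjusted p = 0.0428). The mean level of MT-RNR2 was the highest of all tested genes, and the part of that rank in the quantile-scaled value was not tested.

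Among 7 transcription factors known for mitochondrial genes, MYC rose and PPARGC1A fell with all libraries. These were 28.6% of the list, against 12.3% of all genes. MYC was at 98.4, 142 and 150.4 FPKM in the controls and at 218, 213 and 215 FPKM with HYOU1 shRNA, and its log2 difference was 0.75 (limma, adjusted p = 0.0399). PPARGC1A, a coactivator of mitochondrial biogenesis, was at 7.07, 4.01 and 3.56 FPKM against 1.90, 1.58 and 1.72 FPKM, and its log2 difference was -1.38 (limma, adjusted p = 0.0268). Both kept their direction without control replicate 1, at 0.56 and -1.08 (limma, adjusted p = 0.000193 and 0.000478). Neither passed without control replicate 2 or with any HYOU1 shRNA library left out (limma, adjusted p between 0.0684 and 0.154). NRF1, GABPA and YY1, whose sequences were searched in the promoters, differed by -0.17, -0.48 and -0.088 and did not pass (limma, adjusted p = 0.442, 0.296 and 0.632). Leaving out control replicate 1 moved them to -0.26, -0.16 and -0.0078, and none passed by limma (adjusted p = 0.0695, 0.337 and 0.927). ESRRA and PPRC1, named after their values were seen, differed by 0.60 and 0.37 over all libraries (limma, adjusted p = 0.227 and 0.142). Both were without overlap between the groups and rose by 0.24 and 0.25 in the fit without control replicate 1 (limma, adjusted p = 0.0294 and 0.0343). On the opposite strand TRMT112 shares 284 exon bases with ESRRA, 9.37% of those of ESRRA, at a mean of 89.6 FPKM. Reads of that pair cannot be told apart there, and TRMT112 itself rose by 0.28 without control replicate 1 (limma, adjusted p = 0.0143). In that fit 4 of the 7 passed, or 57.1%, against 44.3% of all genes. With all libraries the groups did not overlap in 4 of the 7, or 57.1%, against 44.4% of all genes. Of the genes with a promoter window, AAGATGGC stood in 3 of 8 that rose without control replicate 1, in 3 of 11 that fell and in 15 of 50 that did not pass. CCGGAAGT stood in 2, 3 and 7 of them.

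A pair of related gene groups was set beside the mitochondrial ribosome. Of 82 tested cytosolic ribosomal protein genes, 5 rose and none fell with all libraries by limma, with a median log2 fold change of 0.29. That is 6.1% of the list, below the 12.3% of all genes. Leaving out control replicate 1, 37 rose and 1 fell, with a median of 0.20. These were 46.3% of the list, near the 44.3% of all genes, of which 24.6% rose. Of 78 tested nuclear genes for respiratory chain and ATP synthase subunits, 3 fell and none rose with all libraries by limma, with a median of -0.11. That is 3.85% of the list, also below the 12.3% of all genes. Leaving out control replicate 1, 25 fell and none rose, with a median of -0.18. These were 32.1% of the list, below the share of all genes, of which 19.7% fell. In the same fit the members of the mitochondrial ribosome had 10 rises, 13 falls and a median of -0.039. Under quantile and TPM scaling the medians with all libraries were 0.17 and 0.32 for cytosolic ribosomal proteins, -0.054 and 0.053 for the mitochondrial ones, and -0.21 and -0.074 for respiratory chain subunits. No difference between the lists was tested.

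**Figure D5:**
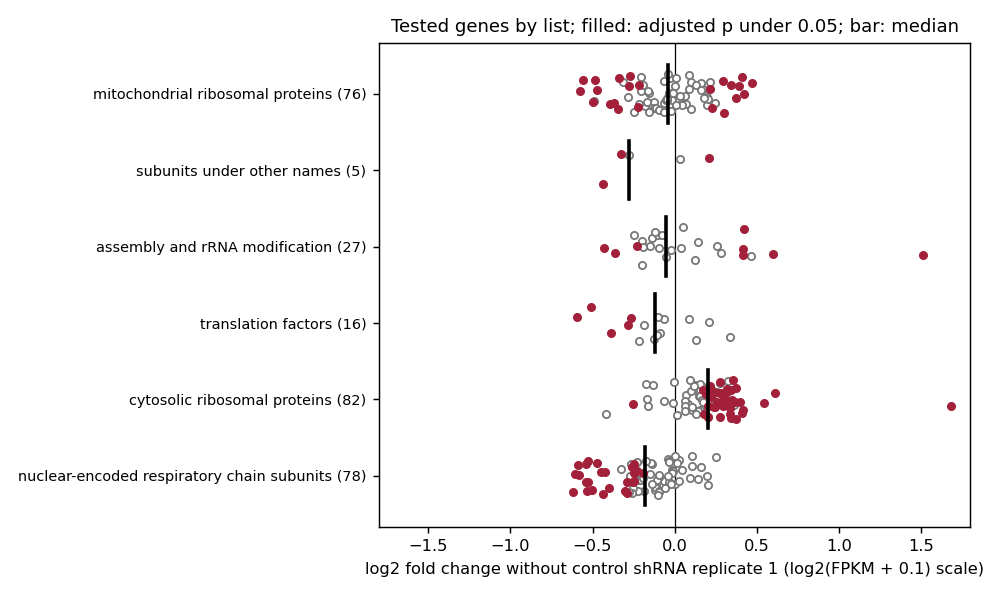
Log2 fold change of HYOU1 shRNA against control shRNA without control replicate 1 (x axis, log2(FPKM + 0.1) scale) for the tested genes of 6 lists (y axis, number of genes in brackets), with a point for each gene, filled where the adjusted p was under 0.05, and a bar for the median. The medians are -0.039 for mitochondrial ribosomal proteins, 0.20 for cytosolic ones and -0.18 for respiratory chain subunits.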

How the data were processed

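RNA of 6 libraries was selected for poly(A) and reverse transcribed with random hexamers, per the labels' protocols. The authors deposited FPKM values for 58735 genes, whose identifiers and coordinates matched GENCODE 29 on GRCh38. The aligner and counting tool are not stated in the sources used here. Multiplied by gene length, 100% of values were whole steps within 0.01 fragments, and the library totals used for scaling equalled median-of-ratios size factors. A count of 3 fragments was worth 0.160 to 0.176 FPKM for a gene of 1 kb, which covers counting error only.

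The values were transformed to log2(FPKM + 0.1), which understates changes of low genes. For genes averaging 1 FPKM or more, limma 3.58.1 (R 4.3.3) compared the groups (variance trend, robust priors), with Benjamini-Hochberg adjustment over all 12448 genes and a threshold of 0.05. The GC correction removed a lowess trend (span 0.3) in each library and would also remove a real difference that follows GC content. The alternatives were pseudocounts, filters, quantile and TPM scaling, the replicate number, voom on recovered fragments and leaving out each library. The fit was tested on simulated data.

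The members were taken by the name rule given at the start, but the rule and the lists were set with earlier results of these data known. Named members are those that passed with all libraries, the 10 largest rises and 10 largest falls among those that passed without control replicate 1, and the 3 highest and lowest of each subunit. Added to these are members under 1 FPKM, HYOU1, the mitochondrial ribosomal RNAs, the subunits under other names and genes of other lists that passed. Genes for S6 kinases and RPS19BP1, which the name pattern of cytosolic ribosomal proteins also matched, were left out after the list had been seen.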

Additional observations from a re-analysis of the deposited data

How the results depend on the processing

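Pseudocounts of 1 and 0.01, a filter of 5 FPKM, quantile and TPM scaling and voom on recovered fragments gave 2 to 4 members past the threshold, beside 3. By limma the count was 0 with no filter and 0 with the replicate block, with 11 and 12 members at an unadjusted p under 0.05. It was 16 after the GC correction, 13 with the GC correction and the replicate block, and 31 after the GC correction without control replicate 1, which was added after the data were seen. Leaving out single libraries gave 0 to 23. The highest count came without control replicate 1, 1 came without control replicate 3, and 0 came without any of the others (6 to 10 at an unadjusted p under 0.05). Over all genes 1526 passed, against 938 with a filter of 5 FPKM, 770 with no filter, 940 with the replicate block, 5048 after the GC correction, 4504 with that and the block, 6049 with that and no control replicate 1, and 49 to 5518 without single libraries. Quantile scaling gave 743 rises and 770 falls over all genes, TPM scaling gave 899 and 619, and 1806 genes passed by voom. The causes of these shifts were not tested. The median log2 fold change of the members stayed between -0.054 and 0.053 in every setting.

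Same-numbered libraries deviated together at r of 0.12, -0.093 and 0.17 across genes, and control replicate 2 correlated best with HYOU1 shRNA replicate 3 (0.16), so the numbers were not taken as pairs.

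Some values changed sign. Quantile scaling gave 0.24 for MT-RNR2 (limma, adjusted p = 0.0428), -0.026 for MRPL37 and -0.040 for MRPS30, and TPM gave 0.027 for MRPL34. After the GC correction, with or without the replicate block, MRPL37 was at -0.010, MRPL41 at -0.12 and AURKAIP1 at -0.35. With the GC correction and no control replicate 1, MRPS34 was at -0.17, MRPL37 at -0.022, AURKAIP1 at -0.48 and GADD45GIP1 at -0.026. Without single libraries the log2 fold changes ran from -0.32 to 0.53 for AURKAIP1, -0.21 to 0.082 for MRPL14, -0.38 to 0.17 for MRPL23, -0.0016 to 0.34 for MRPL3, -0.28 to 0.17 for MRPL34, -0.034 to 0.14 for MRPL37, -0.077 to 0.41 for MRPL42, -0.15 to 0.16 for MRPS18C, -0.042 to 0.23 for MRPS30 and -0.048 to 0.84 for MRPS34. The number of libraries, 3 in a group, limits the precision of every value.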
